A study of Mus musculus with 9 samples.

Results

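Day 3 of differentiation was sampled once in each of 3 genotypes of C2C12, mouse myoblasts that stop dividing and join into multinucleated myotubes when serum is reduced. These 3 libraries, of 9 in the study, were taken by their labels: a control (labelled Neg), a Cry1 knockdown and a Cry2 knockdown. The other 6 libraries hold the same genotypes at day 0 and at day 5, and the study's title concerns Cry2, Bclaf1 and the stability of the cyclin D1 and Tmem176b messages. All cultures grew in DMEM with 10% fetal bovine serum and were moved at day 0 to a differentiation medium with 5% horse serum and 1% insulin, transferrin and selenium, so the day 3 cells of every genotype had spent 3 days in it. PolyA RNA was made into libraries with a kit that does not keep the strand. The labels do not say how the knockdowns were made, whether each was a clone or a pool, or whether the cultures were separate. With 1 library per genotype no difference at day 3 has a replicate check, so no p-value is given and each value compares those libraries.

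Cryptochromes are the repressors of the circadian clock: with the Period proteins they bind and silence the CLOCK and BMAL1 pair that drives their own transcription. In muscle precursors the clock is known to bear on proliferation and differentiation. By the middle of a C2C12 differentiation course myogenin is high, cells have fused, and the genes of the contractile sarcomere are being switched on. Growing myotubes also need amino acids. When these run short, or when the endoplasmic reticulum is overloaded, kinases phosphorylate the translation factor eIF2 alpha, which favours translation of the transcription factor ATF4. ATF4 then drives genes for amino acid synthesis, amino acid import and the loading of tRNAs.

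The control library held 6062366 gene counts, the Cry1 knockdown 6046946 and the Cry2 knockdown 4731020, the lowest total of the 9 libraries. Values are CPM, counts brought to a common library size with size factors over the 9 libraries, and differences are log2 ratios of CPM with a 95% interval in parentheses that covers counting error only. A gene at 0 could still have had 3 counts, which is 0.504 CPM for the control, 0.499 CPM for the Cry1 and 0.635 CPM for the Cry2 knockdown. Genes with a mean of at least 5 CPM over the 3 libraries entered the comparisons, 10650 in all. In bulk RNA, fewer cells of a type and less RNA per cell cannot be told apart. Mitochondrially encoded genes took 1.34% of counts in the control, 1.64% in the Cry1 knockdown and 2.21% in the Cry2 knockdown.

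The skeletal muscle label was met in every library. Myod1, the factor that commits cells to muscle, had 137 CPM in the control against 114 CPM (Cry1 knockdown) and 96.3 CPM (Cry2 knockdown). Myog, which drives terminal differentiation, stood at 682, 800.4 and 557 CPM in control, Cry1 knockdown and Cry2 knockdown cells. The intermediate filament gene Des had 3432, 4002 and 4215 CPM in the same order, and the embryonic myosin gene Myh3 had 3578, 4883 and 3302 CPM. All 3 cultures therefore carried differentiated muscle transcripts. Markers of other lineages were partly present. Of 8 osteoblast genes 5 had counts, and the list summed to 740 CPM in the control, 1157 CPM in the Cry1 knockdown and 441 CPM in the Cry2 knockdown, most of it Spp1 (osteopontin), with Alpl, Bglap and Ibsp at 0. Of 10 adipocyte genes 6 had counts and 3 passed the CPM minimum (Lpl, Cd36 and Pparg), with sums of 132, 179 and 83.6 CPM in the same order and Adipoq, Plin1, Cidec and Lep at 0. Of 7 neuron and glia genes 5 had counts, summing to 293, 227 and 417 CPM, nearly all Tubb3 and Map2, with Sox10 and Syp at 0. Of the 10 endothelial and blood genes 7 had counts but 0 passed the CPM minimum, with sums of 3.86, 2.66 and 3.81 CPM and Lyz2, Adgre1 and Hbb-bs at 0. The part of these markers in the differences between libraries was not tested. The smooth muscle gene Myh11 had 1 count in each library.

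The counts of the targeted genes met the labels. Cry2 (ENSMUSG00000068742, chromosome 2, 92403646 to 92434043, minus strand) stood at 39.7 CPM in control cells, 37.1 CPM after Cry1 knockdown and 8.26 CPM after Cry2 knockdown, a log2 ratio to the control of -2.26 (-2.79 to -1.77) in its own knockdown and -0.10 (-0.37 to 0.17) in the other. Cry1 (ENSMUSG00000020038, chromosome 10, 85131700 to 85185064, minus strand) had 15.8 CPM in the control against 6.65 CPM (Cry1 knockdown) and 19.3 CPM (Cry2 knockdown), a log2 ratio of -1.25 (-1.82 to -0.70) in its own knockdown and 0.29 (-0.15 to 0.72) in the other. Neither was below the control beyond counting error in the other knockdown. Coordinates here and later are those of the mm10 gene models. Among the genes of the study's title, Ccnd1, which encodes cyclin D1 and carries cells through G1, stood at 74.4, 55.7 and 24.1 CPM in control, Cry1 knockdown and Cry2 knockdown cells. Its log2 ratio was -1.62 (-1.93 to -1.32) in the Cry2 knockdown and -0.42 (-0.63 to -0.21) in the Cry1 knockdown. Another annotated gene overlaps 23.4% of its exon bases, so part of its count is uncertain. Tmem176b, a membrane protein gene, had 9 counts in the control, 65 in the Cry1 knockdown and 9 in the Cry2 knockdown, and its neighbour Tmem176a had 5, 35 and 2 counts. Both were thus higher in the Cry1 knockdown, by log2 ratios of 2.84 (1.82 to 4.03) and 2.79 (1.43 to 4.50), although both lie below the CPM minimum. Bclaf1, an RNA-binding and splicing-related factor, stood at 132 CPM in control cells, 148 CPM after Cry1 knockdown and 123 CPM after Cry2 knockdown.

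The Cry2 knockdown had 94 genes at least 2-fold higher than the control (0.883% of 10646 genes with a ratio) and 180 at least 2-fold lower (1.69%). The Cry1 knockdown had 138 genes at least 2-fold higher (1.30% of 10650) and 145 at least 2-fold lower (1.36%). Set directly against the Cry1 knockdown, the Cry2 knockdown had 168 genes at least 2-fold higher (1.58%) and 214 at least 2-fold lower (2.01%). These shares are the background for every count of list members that follows. Both knockdowns share 1 control library, so their ratios to it are not independent, and they are given side by side. For 95% of genes the Cry2 knockdown lay between 0.548 and 1.63 times the control, and the Cry1 knockdown between 0.566 and 1.68 times.

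**Figure D1:**
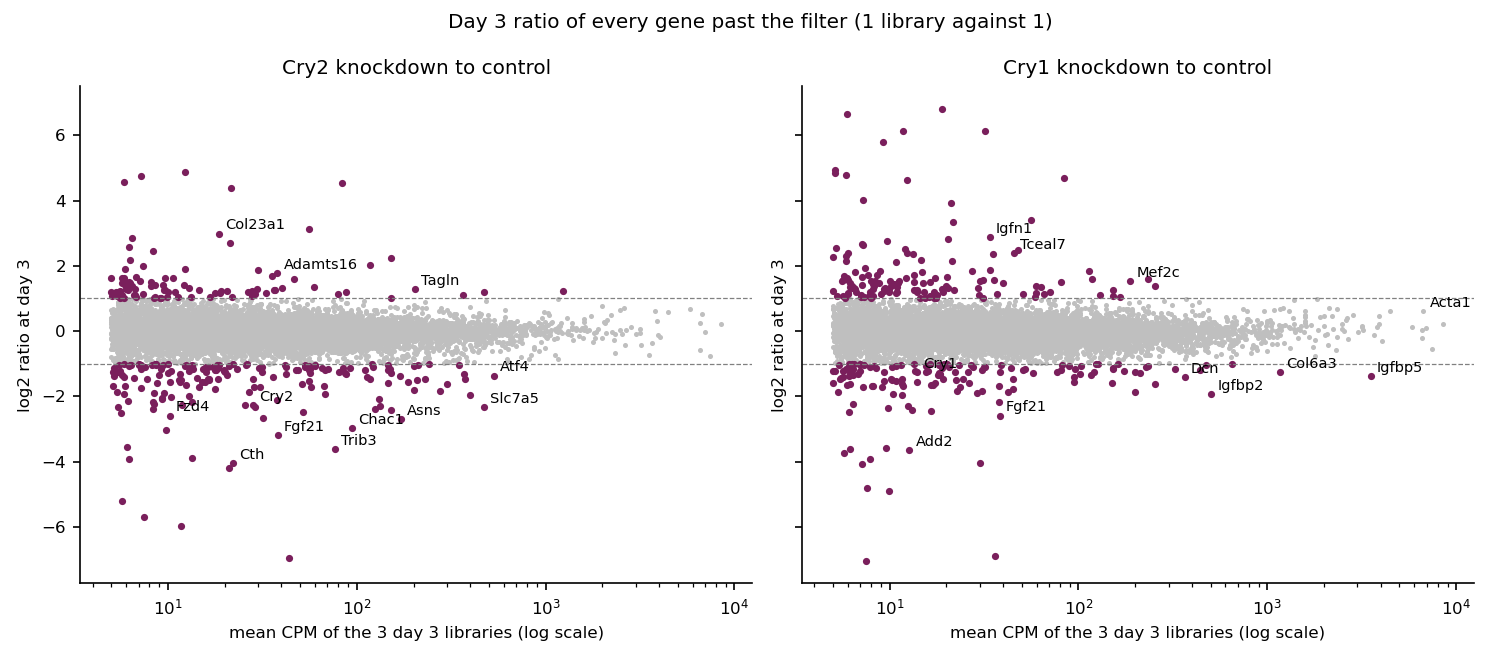
Ratio of each knockdown to the day 3 control against the mean level at day 3, 1 point per gene with a mean of at least 5 CPM (horizontal axis, mean CPM on a log scale; vertical axis, log2 ratio). Dashed lines mark 2-fold; the Cry2 knockdown has 180 genes under the lower line and 94 over the upper one, the Cry1 knockdown 145 and 138.

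Part of these calls fell on unnamed gene models and pseudogenes, a class set by name and annotation, whose shared sequence was not measured. They made up 5.68% of the genes with a Cry2 ratio, and 22 of the 94 higher and 23 of the 180 lower. In the Cry1 knockdown they were 28 of the 138 higher and 22 of the 145 lower. The highest ratios among named genes belonged to genes that share sequence with other genes. Gapdh had 30, 776 and 558 counts in the control, the Cry1 knockdown and the Cry2 knockdown, and 31.8% of the 31-base words of its transcript occur in transcripts of other genes. The same share was 29.3% for Hmgn2, 36.7% for Sumo2, 44.0% for Rps27a, 77.2% for Rps2 and 42.1% for Pgam1. Their ratios at day 3 are reported as uncertain. Gja5, a gap junction gene with 25.6% shared words, is uncertain for the same reason.

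A minority of the Cry2 calls at day 3 were also called at the other days, though a larger share than of all genes. Calls at the other days were counted only among the genes that passed the CPM minimum at day 3. At day 0, 0.948% of all genes were at least 2-fold higher and 0.723% lower in the Cry2 knockdown, and at day 5 1.02% and 1.34%. Of the 94 higher genes, 14 (14.9%) were at least 2-fold higher at day 0 too, which is 13.9% of the 101 called there. Of the 180 lower genes, 12 (6.67%) were also lower at day 0, or 15.6% of the 77 called there. A further 11 of the 94 and 11 of the 180 were called in the opposite direction at day 0, and 6 and 9 at day 5. The level at the other day itself had no minimum, so some shared and opposite calls rest on few counts. Extl1, lower at day 3, was an opposite call at day 0 (log2 ratio 2.46) from a control level of only 0.147 CPM. At day 5 the shared calls were 23 higher (24.5% of the day 3 calls and 21.1% of the day 5 calls) and 33 lower (18.3% and 23.1%). In the Cry1 knockdown, 50 of the 138 higher genes (36.2%) were also called at day 0 and 27 (19.6%) at day 5, or 22.2% and 24.1% of the calls at those days, where 2.11% and 1.05% of all genes were higher. Of its 145 lower genes, 38 (26.2%) and 42 (29.0%) were shared with day 0 and day 5, or 33.3% and 31.8% of the calls there, where 1.07% and 1.24% of all genes were lower. In the opposite direction were 5 of the 138 and 10 of the 145 at day 0, and 9 and 3 at day 5. The difference between the knockdowns in these shares was not tested.

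Among 48 gene lists, 4 stood far below the control in the Cry2 knockdown: regulators and secreted factors of the amino acid stress response, enzymes of amino acid synthesis and the folate cycle, amino acid transporters, and cytosolic tRNA synthetases. Of 60 members 58 passed the CPM minimum; Cbs and Slc7a3, which had at most 7 counts in a library, did not. In the Cry2 knockdown 55 of the 58 were below the control and 40 (69.0%) were at least 2-fold lower, against 1.69% of all genes, and 0 were at least 2-fold higher. These 40 made up 22.2% of the 180 lower calls. The median log2 ratio was -1.35, against -0.01 for all genes. In the Cry1 knockdown 54 of the 58 were below the control and 10 (17.2%) were at least 2-fold lower, against 1.36% of all genes, with a median of -0.66. The members were chosen with earlier results of these libraries known, so the counts describe them only.

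**Figure D2:**
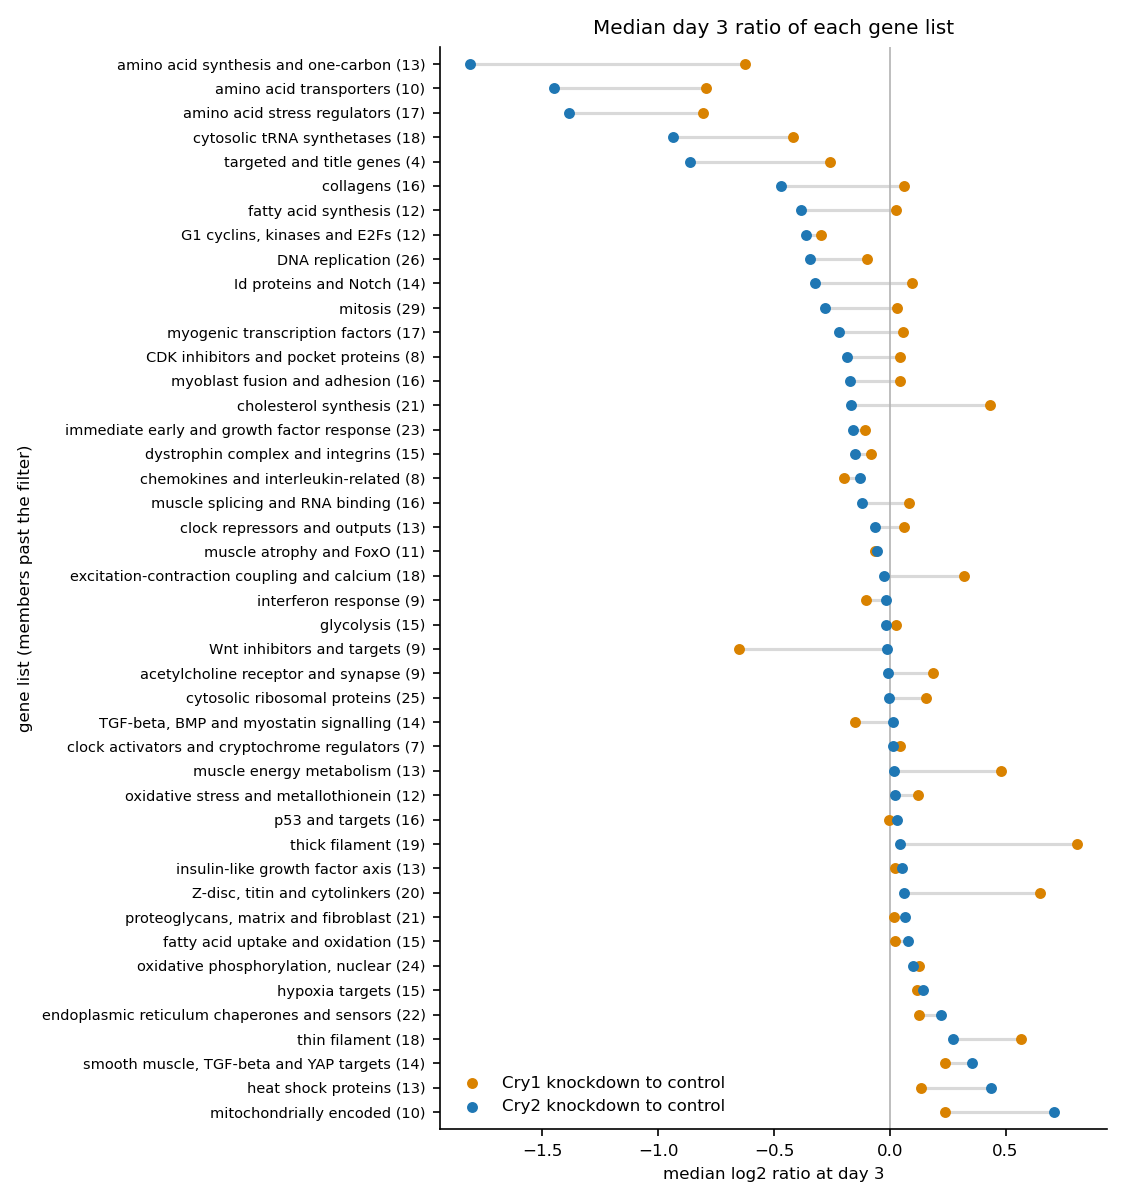
Median log2 ratio to the day 3 control of the listed genes with a mean of at least 5 CPM, for the Cry2 knockdown and the Cry1 knockdown, 1 row per gene list. The synthesis enzymes lie lowest in the Cry2 knockdown (-1.81), and the 3 sarcomere lists are the farthest above 0 in the Cry1 knockdown (0.81 for the thick filament).

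The regulators come first. Of the 17 regulators and secreted factors, 14 were at least 2-fold lower in the Cry2 knockdown (median -1.39) and 6 in the Cry1 knockdown (median -0.80). Atf4 (ENSMUSG00000042406, chromosome 15, 80255184 to 80257541, plus strand), the transcription factor at the head of the response, had 807 CPM in the control against 481 CPM (Cry1 knockdown) and 314 CPM (Cry2 knockdown). The log2 ratio to the control was -1.36 (-1.45 to -1.28) in the Cry2 knockdown and -0.75 (-0.81 to -0.68) in the Cry1 knockdown. Ddit3, the CHOP factor that acts downstream of ATF4, stood at 93.8, 49.4 and 28.4 CPM in control, Cry1 knockdown and Cry2 knockdown cells, log2 ratios of -1.72 (-2.01 to -1.45) in the Cry2 and -0.92 (-1.13 to -0.72) in the Cry1 knockdown. Atf3, another stress-induced factor of the same family, stood at 59.1, 15.8 and 11.9 CPM in that order, log2 ratios of -2.32 (-2.75 to -1.91) in the Cry2 and -1.90 (-2.25 to -1.57) in the Cry1 knockdown, low in both knockdowns. Atf5 departed from these: it had 218, 206 and 83.6 CPM, with a log2 ratio of -1.39 (-1.55 to -1.22) in the Cry2 knockdown and -0.08 (-0.20 to 0.03) in the Cry1 knockdown.

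Several other members of the regulator list were among the genes farthest from the control. Trib3 (ENSMUSG00000032715, chromosome 2, 152337422 to 152344032, minus strand), a pseudokinase that restrains ATF4 and AKT, stood at 153 CPM in control cells, 64.5 CPM after Cry1 knockdown and 12.5 CPM after Cry2 knockdown, 12.3-fold lower than the control in the latter. The log2 ratio to the control was -3.62 (-4.02 to -3.24) in the Cry2 knockdown and -1.25 (-1.42 to -1.07) in the Cry1 knockdown. Chac1, a glutathione-degrading enzyme, had 194 CPM in the control against 66.2 CPM (Cry1 knockdown) and 24.8 CPM (Cry2 knockdown), log2 ratios of -2.97 (-3.25 to -2.69) in the Cry2 and -1.55 (-1.72 to -1.38) in the Cry1 knockdown. For Trib3 and Chac1 the Cry1 knockdown lay between the other libraries. Sesn2, a leucine sensor that restrains mTORC1, had 96.4, 43.1 and 17.1 CPM in the control, the Cry1 knockdown and the Cry2 knockdown, log2 ratios of -2.49 (-2.85 to -2.15) in the Cry2 and -1.16 (-1.38 to -0.95) in the Cry1 knockdown. Vldlr, a lipoprotein receptor, and Nupr1, a stress-induced chromatin protein, were at log2 ratios of -2.27 and -1.30 after Cry2 knockdown, and of -0.86 and -0.66 after Cry1 knockdown. Ddit4, which restrains mTORC1 and has inputs besides ATF4, differed least, with 158, 166 and 106 CPM and log2 ratios of -0.58 (-0.74 to -0.42) in the Cry2 and 0.07 (-0.06 to 0.20) in the Cry1 knockdown.

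Stress hormones that muscle secretes were also lower. Fgf21 (ENSMUSG00000030827, chromosome 7, 45613886 to 45615490, minus strand), an endocrine growth factor released by stressed muscle and liver, stood at 89.9, 15 and 9.95 CPM in control, Cry1 knockdown and Cry2 knockdown cells. The log2 ratio to the control was -3.18 (-3.64 to -2.74) in the Cry2 knockdown and -2.59 (-2.93 to -2.26) in the Cry1 knockdown. Gdf15, a TGF-beta family hormone that acts on appetite, stood at 78.1 CPM in control cells, 17.5 CPM after Cry1 knockdown and 18.2 CPM after Cry2 knockdown, log2 ratios of -2.10 (-2.45 to -1.77) in the Cry2 and -2.16 (-2.48 to -1.85) in the Cry1 knockdown. Both hormones were low in both knockdowns, and the log2 ratio of the Cry2 to the Cry1 knockdown was 0.06 (-0.37 to 0.49) for Gdf15 and -0.59 (-1.13 to -0.06) for Fgf21. Adm2, a peptide hormone of the calcitonin family that was in no list and was named for its low ratio, had 76, 30 and 4 counts, log2 ratios of -3.91 (-5.83 to -2.50) in the Cry2 and -1.36 (-2.02 to -0.73) in the Cry1 knockdown. Stc2, a secreted glycoprotein, was lower in the Cry2 knockdown (-1.03 (-1.52 to -0.56)) and near the control in the Cry1 knockdown (-0.07 (-0.43 to 0.29)).

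Of 13 synthesis and folate enzymes, 11 were at least 2-fold lower in the Cry2 knockdown (median -1.81) and 2 in the Cry1 knockdown (median -0.63). Cth (ENSMUSG00000028179, chromosome 3, 157894248 to 157925077, minus strand), which makes cysteine from cystathionine, had the lowest ratio of all named genes: 45.0 CPM in the control against 19 CPM (Cry1 knockdown) and 2.75 CPM (Cry2 knockdown), from 268, 114 and 13 counts. The log2 ratio to the control was -4.03 (-4.96 to -3.23) in the Cry2 knockdown and -1.25 (-1.58 to -0.93) in the Cry1 knockdown. Asns, which makes asparagine, had 303 CPM in the control against 166 CPM (Cry1 knockdown) and 46.6 CPM (Cry2 knockdown), log2 ratios of -2.70 (-2.91 to -2.50) in the Cry2 and -0.87 (-0.98 to -0.76) in the Cry1 knockdown. The serine pathway was lower at each step. Phgdh, its first enzyme, had 308, 204 and 87.8 CPM, but 74.1% of its 31-base words occur in other genes, so its count is uncertain. Psat1, the second enzyme, had 629, 408 and 161 CPM with log2 ratios of -1.96 (-2.08 to -1.85) in the Cry2 and -0.63 (-0.70 to -0.55) in the Cry1 knockdown. Psph, the last one, had 109, 66.7 and 28.6 CPM with -1.93 (-2.20 to -1.66) in the Cry2 and -0.70 (-0.89 to -0.52) in the Cry1 knockdown. Mitochondrial enzymes of the folate cycle were lower too. The Cry2 knockdown ratio was -2.41 (-2.61 to -2.21) for Mthfd2, -1.56 (-1.72 to -1.41) for Shmt2 and -2.07 (-2.28 to -1.86) for Aldh1l2, and the Cry1 knockdown ratio was -1.12, -0.68 and -0.48. Aldh18a1 and Gpt2, which make proline precursors and alanine, were at -1.59 and -1.46 after Cry2 knockdown, and at -0.97 and -0.61 after Cry1 knockdown. Aldh1a3, a retinaldehyde dehydrogenase, stood above the control, with 8.23, 11.3 and 16.3 CPM and log2 ratios of 0.99 (0.45 to 1.53) in the Cry2 and 0.46 (-0.09 to 1.02) in the Cry1 knockdown.

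Amino acid import was lower as well. Of 10 transporters, 7 were at least 2-fold lower in the Cry2 knockdown (median -1.45) and 2 in the Cry1 knockdown (median -0.80). Slc7a5 (ENSMUSG00000040010, chromosome 8, 121881150 to 121907694, minus strand), the leucine carrier LAT1, stood at 842, 407 and 168 CPM in control, Cry1 knockdown and Cry2 knockdown cells. The log2 ratio to the control was -2.32 (-2.43 to -2.21) in the Cry2 knockdown and -1.05 (-1.12 to -0.98) in the Cry1 knockdown. Its partner chain Slc3a2 stood at 491 CPM in control cells, 249.7 CPM after Cry1 knockdown and 159 CPM after Cry2 knockdown, log2 ratios of -1.62 (-1.74 to -1.51) in the Cry2 and -0.97 (-1.06 to -0.88) in the Cry1 knockdown. Both chains of the leucine carrier were thus lower in both knockdowns. Slc7a1, which imports arginine and lysine, had 221, 110.4 and 42.1 CPM, log2 ratios of -2.39 (-2.61 to -2.17) in the Cry2 and -1.0 (-1.14 to -0.87) in the Cry1 knockdown. Slc7a11, which imports cystine, had 22.3, 12.1 and 8.26 CPM, log2 ratios of -1.44 (-1.99 to -0.91) in the Cry2 and -0.88 (-1.31 to -0.46) in the Cry1 knockdown. The glutamine carriers differed among themselves: Slc1a5 was at -1.47 (-1.86 to -1.08) in the Cry2 and -0.69 (-0.99 to -0.40) in the Cry1 knockdown, whereas Slc38a2 had 552, 449 and 391 CPM, log2 ratios of -0.50 (-0.58 to -0.42) in the Cry2 and -0.30 (-0.37 to -0.23) in the Cry1 knockdown. Slc6a9, a glycine carrier, was at -1.54 and -0.78, with 42.6% shared words.

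The tRNA synthetases, which load each tRNA with its amino acid, were split by ratio. Of 18 genes, 8 were at least 2-fold lower in the Cry2 knockdown (median -0.94) and 0 in the Cry1 knockdown (median -0.42). Those for isoleucine, cysteine and asparagine were lowest: Iars had 329, 184 and 117 CPM, Cars 185, 100.3 and 66.5 CPM and Nars 556, 363 and 201 CPM in the control, the Cry1 knockdown and the Cry2 knockdown. Their log2 ratios were -1.49 (-1.63 to -1.35), -1.48 (-1.66 to -1.29) and -1.47 (-1.57 to -1.36) after Cry2 knockdown, and -0.84, -0.88 and -0.62 after Cry1 knockdown. Those for aspartate, histidine, lysine, glutamine and arginine lay near the control. The Cry2 knockdown ratio was 0.07 (-0.06 to 0.20) for Dars, 0.01 (-0.18 to 0.20) for Hars, -0.20 (-0.34 to -0.07) for Kars, -0.07 (-0.25 to 0.11) for Qars and -0.23 (-0.37 to -0.08) for Rars, and the Cry1 knockdown ratio of these 5 ran from -0.25 to 0.07. Aars, the alanine enzyme, was at -1.33 and -0.76 with 22.7% shared words.

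**Figure D3:**
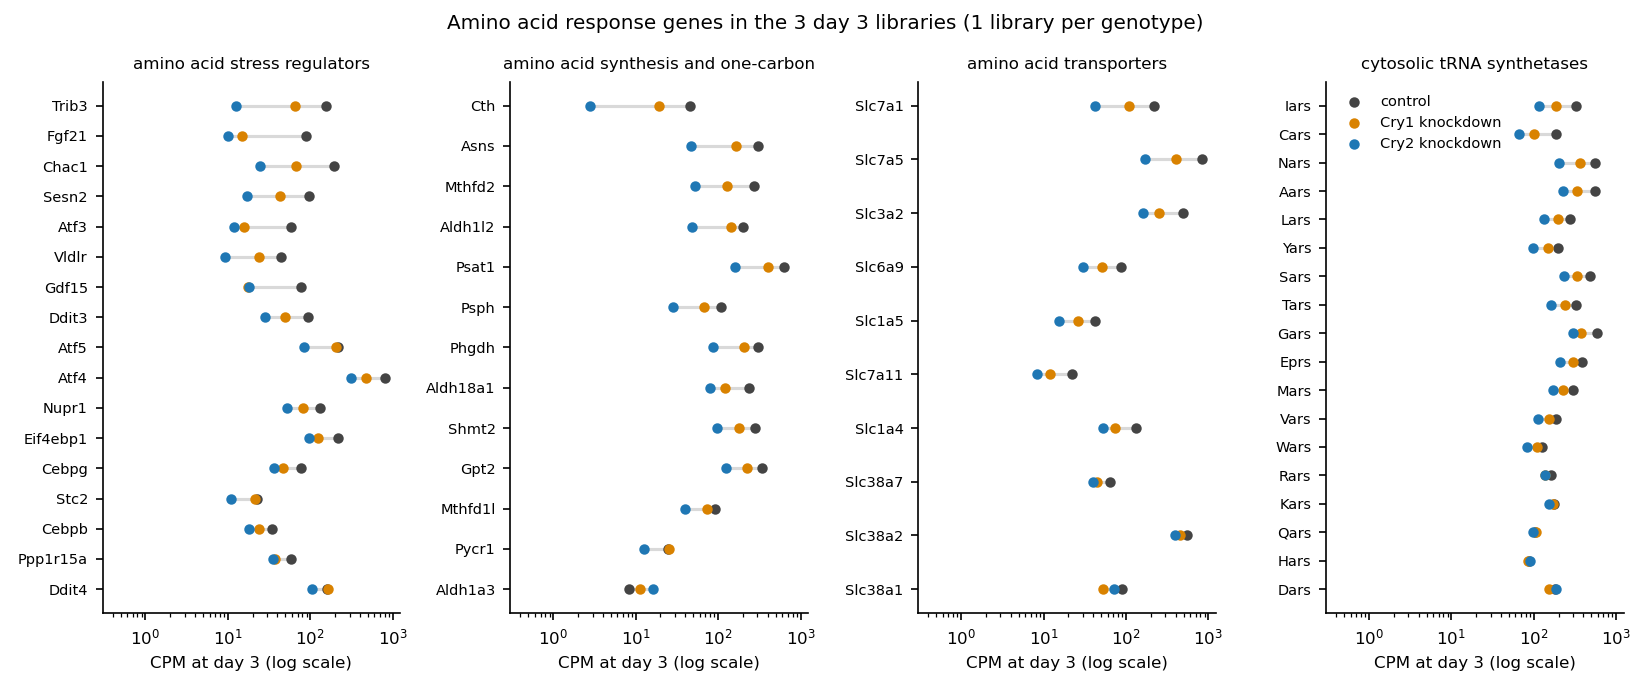
Level at day 3 in each library (CPM, log axis) for members of the 4 amino acid lists. Each gene has 1 point for the control, the Cry1 knockdown and the Cry2 knockdown. A grey line runs from its lowest to its highest point, and no counting interval is drawn. Cth, Trib3 and Asns lie at 45.0, 153 and 303 CPM in the control and at 2.75, 12.5 and 46.6 CPM in the Cry2 knockdown.

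Between the knockdowns directly, 52 of the 58 genes were lower in the Cry2 than in the Cry1 knockdown and 15 (25.9%) at least 2-fold lower, against 2.01% of all genes, with a median of -0.61. The synthesis enzymes were the most apart (median -1.22, 8 of 13 at least 2-fold lower), with Cth at -2.78 (-3.74 to -1.95) and Asns at -1.83 (-2.05 to -1.62). Trib3 was at -2.37 (-2.79 to -1.97). Genes outside the lists that belong to the same metabolism were looked up after their values were seen. Pck2, mitochondrial phosphoenolpyruvate carboxykinase, had 228 CPM in the control against 125 CPM (Cry1 knockdown) and 46.4 CPM (Cry2 knockdown), and Bcat1, which transaminates leucine, isoleucine and valine, had 110.4 CPM in the control against 56.4 CPM (Cry1 knockdown) and 34.7 CPM (Cry2 knockdown). Their log2 ratios in the Cry2 knockdown were -2.30 (-2.51 to -2.09) and -1.67 (-1.92 to -1.42).

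At the other days the same genes lay near or above the control. Over the same 58 genes the median log2 ratio at day 0 was -0.09 in the Cry2 knockdown and -0.01 in the Cry1 knockdown, with 0 genes at least 2-fold lower in either. At day 5 the medians were 0.23 and 0.24, 49 and 50 of 58 genes lay above the control, and 0 were at least 2-fold lower in either. The summed level of the 17 regulators in the control went from 976 CPM at day 0 to 2532 at day 3 and 2135 at day 5. In the Cry1 knockdown it went from 912 to 1484 and 3046 CPM, and in the Cry2 knockdown from 902 to 883 and 2931 CPM. The control was thus at its highest of the 3 days at day 3, whereas both knockdowns were at theirs at day 5. For the synthesis enzymes the sums at days 0, 3 and 5 were 1519, 2858 and 2935 CPM (control), 1455, 1768 and 3269 CPM (Cry1 knockdown) and 1325, 796 and 3121 CPM (Cry2 knockdown). Their day 3 sum in the Cry2 knockdown was below its own day 0 sum. For the transporters they were 1416, 2544 and 2841 CPM, 1408, 1479.7 and 3537 CPM, and 1336, 980.1 and 3252 CPM in the same order of genotypes. The synthetases summed to 3677, 5201 and 5135 CPM, 3668, 3702 and 5804 CPM, and 3401, 2769 and 5822 CPM, so their control sum at day 3 was again above both knockdowns. Trib3 shows the course in a single gene: the control had 10.3, 153 and 127 CPM at days 0, 3 and 5, the Cry1 knockdown 11.3, 64.5 and 242 CPM, and the Cry2 knockdown 14.2, 12.5 and 210.0 CPM. Each of these points is 1 library.

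**Figure D4:**
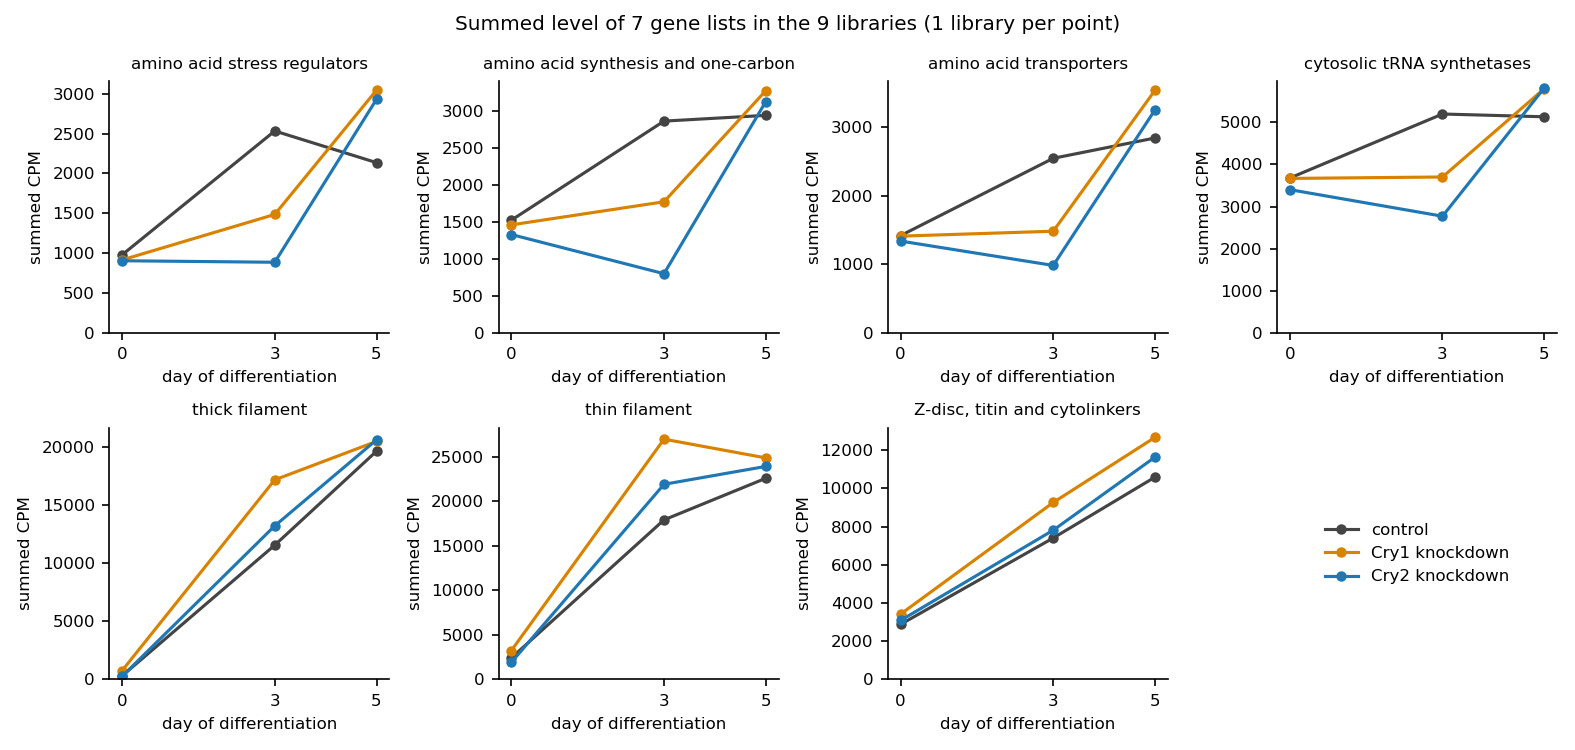
Summed CPM (vertical axis) at days 0, 3 and 5 (horizontal axis), 1 line per genotype and 1 library per point. The panels are the 4 amino acid lists and the 3 sarcomere lists. At day 3 the regulators sum to 2532 CPM in the control, 1484 CPM in the Cry1 knockdown and 883 CPM in the Cry2 knockdown.

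Chaperones of the endoplasmic reticulum, the targets of the other arms of the stress response, did not share the low levels. Of 22 genes, 0 were at least 2-fold lower and 1 at least 2-fold higher in the Cry2 knockdown, with medians of 0.22 in the Cry2 and 0.13 in the Cry1 knockdown. Hspa5, the main chaperone BiP, stood at 825, 1047 and 1210.2 CPM in control, Cry1 knockdown and Cry2 knockdown cells, log2 ratios of 0.55 (0.50 to 0.61) in the Cry2 and 0.34 (0.29 to 0.40) in the Cry1 knockdown. Sdf2l1, which works with BiP, stood at 12.4 CPM in control cells, 16.5 CPM after Cry1 knockdown and 27.7 CPM after Cry2 knockdown, log2 ratios of 1.16 (0.74 to 1.59) in the Cry2 and 0.40 (-0.04 to 0.86) in the Cry1 knockdown. Calr, the chaperone calreticulin, was at 0.49 and 0.15. Herpud1, a degradation factor of the same compartment, was the lowest of this list in the Cry2 knockdown, at -0.97 (-1.09 to -0.85) in the Cry2 and -0.72 (-0.82 to -0.61) in the Cry1 knockdown.

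The promoters of the lists also differ in sequence. The letters TGATGCAA, a core of the amino acid response element that ATF4 binds with C/EBP partners, were searched on both strands from 250 bases before to 50 after each RefSeq start (GRCm38.p6). They occur in 12 of 44 genes of the 4 amino acid lists that have a promoter entry (27.3%) and in 279 of 27025 genes overall (1.03%). The 12 genes are Aars, Atf3, Chac1, Fgf21, Iars, Nupr1, Pycr1, Slc1a4, Slc7a11, Tars, Vldlr and Yars. The endoplasmic reticulum stress element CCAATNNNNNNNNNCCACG occurs in 8 of 19 chaperone genes with an entry (42.1%), in 0 of the 44 amino acid genes and in 0.137% of all genes. The chaperone gene Herpud1 holds TGATGCAA and not the stress element. A match is a description of the letters, not evidence of binding. The lists hold genes chosen for these stress responses, with earlier results of these libraries known, so the shares describe those members only. The 250 bases before the start are shown for genes with different roles and low levels in the Cry2 knockdown, and for a chaperone gene as contrast, 5′ to 3′ on the gene's strand, with each match in capitals (TTGCATCA is TGATGCAA read on the other strand).
Chac1: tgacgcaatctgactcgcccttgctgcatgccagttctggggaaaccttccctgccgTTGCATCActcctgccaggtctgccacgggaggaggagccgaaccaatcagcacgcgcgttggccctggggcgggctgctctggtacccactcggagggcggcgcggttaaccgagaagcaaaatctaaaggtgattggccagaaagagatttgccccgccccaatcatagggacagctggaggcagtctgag
Fgf21: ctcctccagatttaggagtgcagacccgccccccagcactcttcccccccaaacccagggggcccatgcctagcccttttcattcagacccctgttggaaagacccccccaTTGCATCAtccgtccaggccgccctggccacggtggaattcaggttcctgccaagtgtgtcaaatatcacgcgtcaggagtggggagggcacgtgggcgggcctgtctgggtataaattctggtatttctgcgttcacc
Slc7a11: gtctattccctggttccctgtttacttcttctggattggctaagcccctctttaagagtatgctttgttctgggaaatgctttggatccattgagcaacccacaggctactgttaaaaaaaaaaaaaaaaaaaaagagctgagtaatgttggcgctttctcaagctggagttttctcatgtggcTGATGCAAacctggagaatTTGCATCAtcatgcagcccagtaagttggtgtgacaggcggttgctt
Creld2: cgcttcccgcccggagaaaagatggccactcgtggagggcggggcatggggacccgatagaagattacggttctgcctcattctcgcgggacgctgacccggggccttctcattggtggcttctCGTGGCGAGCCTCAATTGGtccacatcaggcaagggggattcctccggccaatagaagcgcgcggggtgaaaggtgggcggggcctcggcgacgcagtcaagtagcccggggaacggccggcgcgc

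The Chac1 window (chr2:119350992-119351241, plus strand) holds the letters at -193 from the start, and Chac1 was at a log2 ratio of -2.97 in the Cry2 knockdown. In the Fgf21 window (chr7:45615491-45615740, minus strand) they lie at -139, in a gene at -3.18. Slc7a11, at -1.44, holds them at -66 and -47 on opposite strands (chr3:50443614-50443863, minus strand). Creld2, a chaperone-like gene of the endoplasmic reticulum, has none and holds the stress element at -126 (chr15:88819396-88819645, plus strand). Its log2 ratio was 0.58 (0.34 to 0.81) in the Cry2 and 0.11 (-0.14 to 0.35) in the Cry1 knockdown. Trib3 and Asns have a promoter entry without these letters, although their ratios were among the lowest of their lists.

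Some cell cycle and signalling genes also had low ratios in the Cry2 knockdown, although few members of their lists were past 2-fold. Of 12 G1 cyclins, kinases and E2Fs, 1 (Ccnd1) was at least 2-fold lower, and the median log2 ratio was -0.36, against -0.30 in the Cry1 knockdown. Ccnd2, a second D-type cyclin, had 189.5 CPM in the control against 125 CPM (Cry1 knockdown) and 99.5 CPM (Cry2 knockdown), log2 ratios of -0.93 (-1.09 to -0.77) in the Cry2 and -0.60 (-0.74 to -0.47) in the Cry1 knockdown. Ccnd3, the D-type cyclin that stays on in differentiating muscle, stood at 423, 295 and 278 CPM in control, Cry1 knockdown and Cry2 knockdown cells, log2 ratios of -0.61 (-0.70 to -0.51) in the Cry2 and -0.52 (-0.61 to -0.43) in the Cry1 knockdown. All 3 D-type cyclins were thus lower in both knockdowns. DNA replication genes had medians of -0.34 and -0.10, with 0 of 26 past 2-fold in either, and mitosis genes -0.28 and 0.03. The CDK inhibitor Cdkn1c, a marker of cell cycle exit in muscle, stood at 17.5 CPM in control cells, 22.1 CPM after Cry1 knockdown and 5.93 CPM after Cry2 knockdown, log2 ratios of -1.56 (-2.22 to -0.95) in the Cry2 and 0.34 (-0.04 to 0.72) in the Cry1 knockdown, whereas Cdkn1a was near the control in both (-0.15 and 0.03). The Cdkn1c count is uncertain, with 28.4% shared words and 30.7% of its exon bases under other genes. The insulin-like growth factor list had a median of 0.05 and TGF-beta signalling one of 0.01. Igf2r, which clears IGF2, was at -1.03 (-1.16 to -0.90) in the Cry2 and -0.55 (-0.65 to -0.44) in the Cry1 knockdown. The Notch ligand Jag1 had 30.2, 32.8 and 14.6 CPM, log2 ratios of -1.05 (-1.47 to -0.64) in the Cry2 and 0.12 (-0.18 to 0.41) in the Cry1 knockdown.

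Several single genes stood out in the Cry2 knockdown. Fzd4, a Wnt receptor, had 106, 60 and 14 counts in the control, the Cry1 knockdown and the Cry2 knockdown, log2 ratios of -2.59 (-3.51 to -1.78) in the Cry2 and -0.84 (-1.32 to -0.37) in the Cry1 knockdown. Atp2a3, a calcium pump of the endoplasmic reticulum, had 74, 29 and 5 counts, log2 ratios of -3.55 (-5.22 to -2.27) in the Cry2 and -1.37 (-2.04 to -0.73) in the Cry1 knockdown. Extl1, an enzyme of heparan sulfate chains, had 133, 26 and 13 counts and was low in both knockdowns (-3.02 (-3.97 to -2.20) in the Cry2 and -2.37 (-3.04 to -1.76) in the Cry1 knockdown). Vgll2, a muscle cofactor of the TEAD factors, had 63.3 CPM in the control against 52.2 CPM (Cry1 knockdown) and 27.7 CPM (Cry2 knockdown), log2 ratios of -1.19 (-1.49 to -0.90) in the Cry2 and -0.28 (-0.50 to -0.06) in the Cry1 knockdown. The hypoxia target Car9 was at -1.91 (-2.82 to -1.09) in the Cry2 and -0.23 (-0.75 to 0.28) in the Cry1 knockdown and the p53 target Bbc3 at -1.14 (-1.64 to -0.65) in the Cry2 and -0.58 (-0.98 to -0.18) in the Cry1 knockdown, but each was the only member of its list past 2-fold. Of the genes above the control, Col23a1, a membrane collagen, stood at 5.71, 4.82 and 45.3 CPM in control, Cry1 knockdown and Cry2 knockdown cells, 2.99 (2.46 to 3.55) in the Cry2 knockdown and -0.24 (-1.01 to 0.51) in the Cry1 knockdown. It was also higher at day 5 (log2 ratio 3.75) and near the control at day 0 (0.14). Trdc had 14, 13 and 67 counts, 2.59 (1.75 to 3.54) in the Cry2 knockdown. Igfbp3, which binds insulin-like growth factors, had 16, 47 and 69 counts and was higher in both (2.44 (1.64 to 3.33) in the Cry2 and 1.54 (0.69 to 2.46) in the Cry1 knockdown). Adamts16, a secreted protease, had 19.5, 27.6 and 67.1 CPM, log2 ratios of 1.78 (1.47 to 2.10) in the Cry2 and 0.50 (0.15 to 0.86) in the Cry1 knockdown. Atg9b and Apol10b rested on 20 and 14 control counts, with Cry2 ratios of 1.99 (1.24 to 2.79) and 2.17 (1.29 to 3.14).

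Of 16 collagen genes, 14 lay below the control in the Cry2 knockdown, but 0 were at least 2-fold lower and 1 (Col23a1) at least 2-fold higher. Their median was -0.47 in the Cry2 knockdown and 0.06 in the Cry1 knockdown, where 8 lay above and 8 below the control. Col1a1 stood at 2171 CPM in control cells, 3451 CPM after Cry1 knockdown and 1366 CPM after Cry2 knockdown, log2 ratios of -0.67 (-0.71 to -0.63) in the Cry2 and 0.67 (0.64 to 0.70) in the Cry1 knockdown. Col3a1 had 7767 CPM in the control against 6736 CPM (Cry1 knockdown) and 5147 CPM (Cry2 knockdown), log2 ratios of -0.59 (-0.62 to -0.57) in the Cry2 and -0.21 (-0.22 to -0.19) in the Cry1 knockdown. The type I chain Col1a1 was thus on opposite sides of the control in the knockdowns, and Col3a1 below it in both. Genes of the smooth muscle list, which myoblasts also express, had a median of 0.36 in the Cry2 knockdown and 0.24 in the Cry1 knockdown. Myl9, a regulatory light chain, had 61.0, 62.0 and 141 CPM, log2 ratios of 1.21 (1.03 to 1.4) in the Cry2 and 0.02 (-0.19 to 0.24) in the Cry1 knockdown. Acta2 had 2005, 2325 and 3135 CPM, log2 ratios of 0.64 (0.61 to 0.68) in the Cry2 and 0.21 (0.18 to 0.25) in the Cry1 knockdown. Tagln was at 1.29 (1.16 to 1.42) and 0.43 (0.29 to 0.56), although other annotated genes overlap 67.9% of its exon bases. Cnn1, a defining smooth muscle gene, had 3, 10 and 26 counts, and Myh11 1 count in each library. Mitochondrially encoded genes were higher in the Cry2 knockdown, with a median of 0.71 over 10 genes (0.24 in the Cry1 knockdown). The same median was 0.67 at day 0 and -0.01 at day 5. mt-Co1 stood at 4730.2, 5163 and 7499 CPM in control, Cry1 knockdown and Cry2 knockdown cells, with 63.9% shared words. Nuclear genes of oxidative phosphorylation had medians of 0.10 and 0.13. Cytosolic heat shock genes had a median of 0.44 in the Cry2 and 0.14 in the Cry1 knockdown, and Hspa8, the most abundant HSP70, was at 0.50 and 0.45 with 61.5% shared words. The part of mitochondrial share and library depth in the Cry2 differences was not tested.

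The Cry1 knockdown was higher than the control in genes of the sarcomere, the repeating unit of actin and myosin filaments. Of 64 sarcomere genes in 3 lists, 57 passed the CPM minimum, and 12 (21.1%) were at least 2-fold higher in the Cry1 knockdown, against 1.30% of all genes. 4 of 57 were below the control, 0 were at least 2-fold lower, and the median was 0.65, against -0.02 for all genes. In the Cry2 knockdown 5 were at least 2-fold lower (8.77%, against 1.69%) and 1 higher, with a median of 0.10. Directly, 53 of 57 were lower in the Cry2 than in the Cry1 knockdown, 14 of them at least 2-fold (24.6%, against 2.01%), with a median of -0.43. The same genes had a Cry1 knockdown median of 1.34 at day 0, with 36 at least 2-fold higher, and of 0.20 at day 5, with 3. Control levels were lower at day 0. The thick filament, thin filament and Z-disc lists summed to 274, 2379 and 2869 CPM there, against 11565, 17902 and 7399 CPM at day 3. No minimum level was asked at day 0, so some of its ratios rest on few counts, such as that of Igfn1 (0.587 CPM in the control).

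The thick filament held 8 of these calls among 19 genes (median 0.81). Myh8, the perinatal myosin heavy chain, stood at 69.1 CPM in control cells, 245 CPM after Cry1 knockdown and 26.0 CPM after Cry2 knockdown, log2 ratios of 1.83 (1.67 to 1.99) in the Cry1 and -1.41 (-1.71 to -1.11) in the Cry2 knockdown. Myh7, the slow myosin, had 56.5 CPM in the control against 161 CPM (Cry1 knockdown) and 23.9 CPM (Cry2 knockdown), log2 ratios of 1.51 (1.33 to 1.70) in the Cry1 and -1.24 (-1.56 to -0.93) in the Cry2 knockdown. Myh4, a fast myosin, stood at 43.7, 115 and 21.0 CPM in control, Cry1 knockdown and Cry2 knockdown cells, log2 ratios of 1.4 (1.19 to 1.61) in the Cry1 and -1.06 (-1.41 to -0.72) in the Cry2 knockdown. These 3 myosins lay above the control in the Cry1 knockdown and below it in the Cry2 knockdown. Between 30.4% and 44.9% of the 31-base words of Myh1, Myh2, Myh4, Myh7 and Myh8 occur in transcripts of other genes, so their counts are uncertain. The embryonic Myh3 was at 0.45 (0.42 to 0.47) in the Cry1 and -0.12 (-0.15 to -0.09) in the Cry2 knockdown. Mybpc1, the slow myosin-binding protein C, had 56.1, 129.9 and 25 CPM, 1.21 (1.02 to 1.4) in the Cry1 and -1.17 (-1.48 to -0.86) in the Cry2 knockdown. Its fast form Mybpc2 had 23, 133 and 49 counts and was higher in both (2.52 (1.87 to 3.22) in the Cry1 and 1.42 (0.68 to 2.21) in the Cry2 knockdown). The remaining calls were Myh1 (1.12 (0.98 to 1.26)), Myh2 (1.15 (0.58 to 1.74)) and Myh7b (1.38 (0.95 to 1.82)).

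Thin filament genes were higher by smaller steps, with 0 of 18 past 2-fold and a Cry1 knockdown median of 0.57. The skeletal actin Acta1 stood at 5045 CPM in control cells, 7761 CPM after Cry1 knockdown and 7307 CPM after Cry2 knockdown, 0.62 (0.60 to 0.64) in the Cry1 and 0.53 (0.51 to 0.56) in the Cry2 knockdown. The cardiac actin Actc1, which is expressed early in muscle development, had 1438 CPM in the control against 2841 CPM (Cry1 knockdown) and 1234 CPM (Cry2 knockdown), log2 ratios of 0.98 (0.94 to 1.02) in the Cry1 and -0.22 (-0.27 to -0.17) in the Cry2 knockdown. The actins were therefore both higher in the Cry1 knockdown and on opposite sides of the control in the Cry2 knockdown. At the Z-disc, where thin filaments are anchored, 4 of 20 genes were at least 2-fold higher (median 0.65). Igfn1 (ENSMUSG00000051985, chromosome 1, 135953578 to 136006342, minus strand), a Z-disc protein, stood at 10.2, 75.8 and 15.7 CPM in control, Cry1 knockdown and Cry2 knockdown cells, log2 ratios of 2.89 (2.50 to 3.30) in the Cry1 and 0.61 (0.10 to 1.13) in the Cry2 knockdown. Actn2, the alpha-actinin that crosslinks thin filaments, stood at 149.5 CPM in control cells, 455 CPM after Cry1 knockdown and 96.9 CPM after Cry2 knockdown, log2 ratios of 1.60 (1.5 to 1.72) in the Cry1 and -0.63 (-0.79 to -0.46) in the Cry2 knockdown. Tcap, the titin cap, and Ankrd2, a stretch-responsive titin partner, were at 1.21 (0.72 to 1.71) and 1.14 (0.90 to 1.38) in the Cry1 knockdown. Xirp2, an actin-binding repeat protein, was at 0.79 (0.43 to 1.15) in the Cry1 and -1.03 (-1.60 to -0.49) in the Cry2 knockdown.

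**Figure D5:**
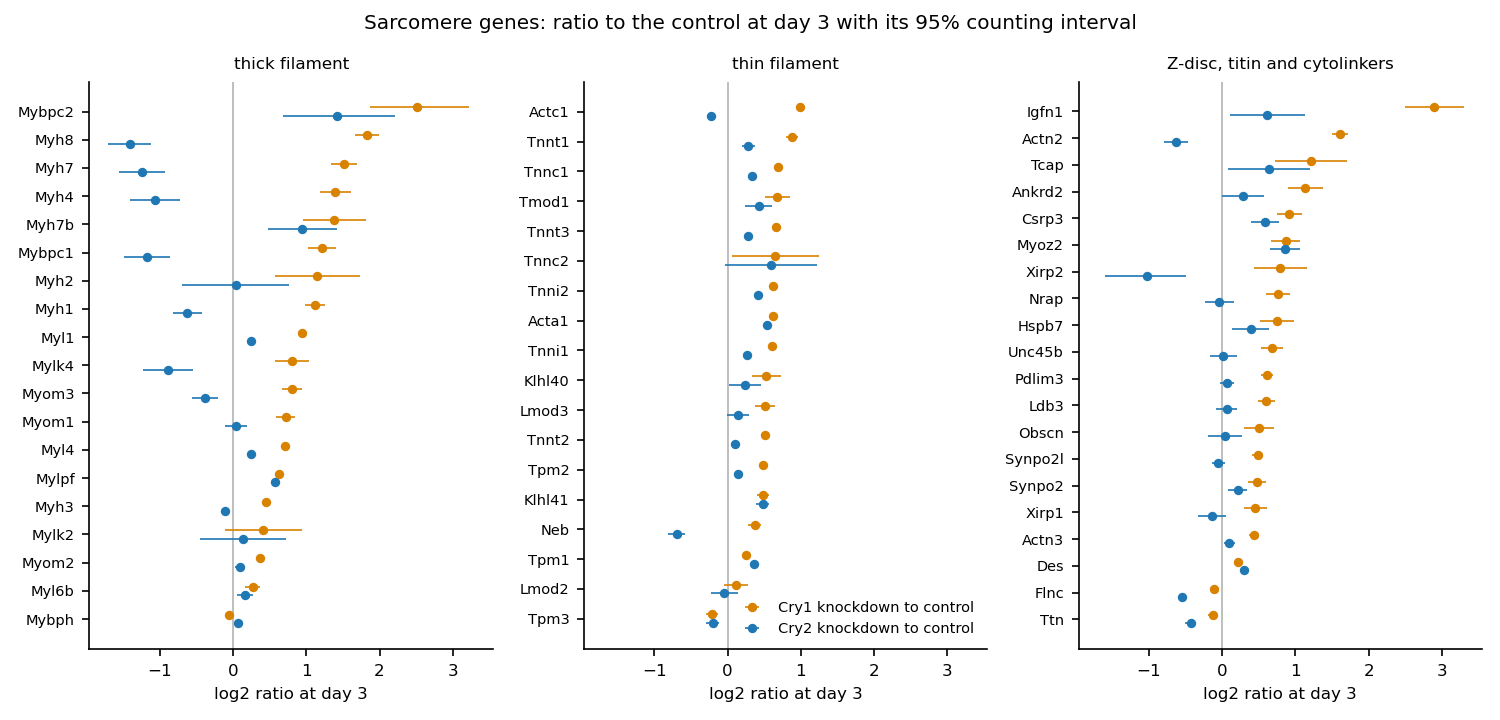
Log2 ratio to the day 3 control of sarcomere genes, with 95% counting intervals, in the Cry1 knockdown and the Cry2 knockdown. Igfn1, Actn2 and Myh8 lie at 2.89, 1.60 and 1.83 in the Cry1 knockdown, and Myh8 at -1.41 in the Cry2 knockdown.

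Other muscle lists differed from one another in the Cry1 knockdown. Of 18 genes of calcium handling 15 lay above the control, with a median of 0.32 (-0.03 in the Cry2 knockdown), and 1 was past 2-fold. It was Trdn, the triadin that anchors the calcium release channel, with 8.06, 28.4 and 8.04 CPM and a log2 ratio of 1.82 (1.35 to 2.31). Of 13 muscle energy genes 12 lay above the control, with a median of 0.48 (0.02 in the Cry2 knockdown), and 1 (Mb) was past 2-fold. Mb, the oxygen carrier myoglobin, had 157 CPM in the control against 406 CPM (Cry1 knockdown) and 196 CPM (Cry2 knockdown), 1.37 (1.26 to 1.48) in the Cry1 and 0.32 (0.19 to 0.46) in the Cry2 knockdown. Its count is uncertain, since 35.2% of its 31-base words occur in other genes and other genes overlap 31.9% of its exon bases. Ckm, muscle creatine kinase, stood at 217, 409.9 and 219.5 CPM in control, Cry1 knockdown and Cry2 knockdown cells, log2 ratios of 0.92 (0.82 to 1.02) in the Cry1 and 0.02 (-0.10 to 0.14) in the Cry2 knockdown. Of 17 myogenic transcription factors, 2 were at least 2-fold higher in the Cry1 knockdown, and the median was 0.06. Mef2c, which drives sarcomere genes with the MyoD family, stood at 119 CPM in control cells, 343 CPM after Cry1 knockdown and 102 CPM after Cry2 knockdown, log2 ratios of 1.53 (1.4 to 1.65) in the Cry1 and -0.22 (-0.39 to -0.05) in the Cry2 knockdown. Eya4, a cofactor of homeobox factors in muscle, was at 1.01 (0.72 to 1.31). Myog differed little (0.23 (0.17 to 0.29) in the Cry1 and -0.29 (-0.36 to -0.22) in the Cry2 knockdown), and Mef2a was lower in the Cry1 knockdown (-0.63 (-0.72 to -0.54)). Cav3, the muscle caveolin, had 48.2, 105 and 44.0 CPM, 1.12 (0.92 to 1.33), in a fusion and adhesion list with a median of 0.04. The fusion protein gene Mymk was level with the control (-0.01 (-0.07 to 0.04) in the Cry1 and 0.07 (0.02 to 0.13) in the Cry2 knockdown). Rbfox1, a muscle splicing factor, was at 1.47 (0.95 to 2.02) in the Cry1 and 0.06 (-0.64 to 0.75) in the Cry2 knockdown, and Fbxo40, a muscle ubiquitin ligase part, had 11, 54 and 20 counts (2.28 (1.33 to 3.37)).

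Some lipid and clock genes also differed in the Cry1 knockdown, although most of their lists had medians near 0. The Cry1 knockdown median was 0.03 for fatty acid synthesis and 0.02 for fatty acid uptake and oxidation. For clock repressors and outputs it was 0.06, with 7 genes above and 6 below the control. Cholesterol synthesis genes had a median of 0.43 over 21 genes, against -0.17 in the Cry2 knockdown. Insig1, the sterol sensor, had 124 CPM in the control against 257 CPM (Cry1 knockdown) and 115 CPM (Cry2 knockdown), log2 ratios of 1.05 (0.92 to 1.18) in the Cry1 and -0.12 (-0.28 to 0.05) in the Cry2 knockdown, the sole member past 2-fold. Lss and Acat2 were at 0.96 (0.77 to 1.16) and 0.83 (0.64 to 1.02) in the Cry1 knockdown, Acat2 with 50.5% shared words. Cd36, a fatty acid carrier of muscle and fat, stood at 16, 56.9 and 8.68 CPM in control, Cry1 knockdown and Cry2 knockdown cells, log2 ratios of 1.83 (1.5 to 2.18) in the Cry1 and -0.88 (-1.44 to -0.34) in the Cry2 knockdown. Cd36 is itself in the adipocyte list, so the sums of that list (132, 179 and 83.6 CPM, genotypes ordered as before) are not a separate observation. Lpl and Pparg, the other members past the CPM minimum, did not share its high Cry1 ratio, at 0.11 (-0.05 to 0.27) and -0.57 (-1.23 to 0.06). Their Cry2 ratios were -0.65 (-0.85 to -0.45) and -0.64 (-1.37 to 0.05). Among clock repressors and outputs, Per2 stood at 10.2 CPM in control cells, 28.9 CPM after Cry1 knockdown and 10.2 CPM after Cry2 knockdown, log2 ratios of 1.5 (1.07 to 1.94) in the Cry1 and -0.01 (-0.59 to 0.56) in the Cry2 knockdown. Nr1d1, the clock repressor REV-ERB alpha, had 94.3 CPM in the control against 54.0 CPM (Cry1 knockdown) and 65.0 CPM (Cry2 knockdown), log2 ratios of -0.80 (-1.0 to -0.60) in the Cry1 and -0.54 (-0.74 to -0.33) in the Cry2 knockdown. Clock activators and cryptochrome regulators had medians of 0.04 and 0.02.

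In the Cry1 knockdown, matrix and insulin-like growth factor genes lay on both sides of the control. Of 21 proteoglycan and matrix genes 11 lay above and 10 below the control, and the insulin-like growth factor list had 7 above and 6 below, both with a median of 0.02. Igfbp5, an insulin-like growth factor binding protein induced in differentiating myoblasts, stood at 5315, 2047 and 3204 CPM in control, Cry1 knockdown and Cry2 knockdown cells, -1.38 (-1.41 to -1.35) in the Cry1 and -0.73 (-0.76 to -0.70) in the Cry2 knockdown. Igfbp2 stood at 646 CPM in control cells, 168 CPM after Cry1 knockdown and 701 CPM after Cry2 knockdown, log2 ratios of -1.94 (-2.04 to -1.84) in the Cry1 and 0.12 (0.05 to 0.18) in the Cry2 knockdown. Igf1, the growth factor itself, had 40.0 CPM in the control against 11.1 CPM (Cry1 knockdown) and 41.5 CPM (Cry2 knockdown), log2 ratios of -1.84 (-2.26 to -1.45) in the Cry1 and 0.05 (-0.23 to 0.33) in the Cry2 knockdown. Igf1 and Igfbp2 were thus low in the Cry1 knockdown and near the control in the Cry2 knockdown, while Igfbp5 was low in both. Of the matrix genes, the small proteoglycan Dcn stood at 434, 164 and 495 CPM in control, Cry1 knockdown and Cry2 knockdown cells, log2 ratios of -1.4 (-1.51 to -1.29) in the Cry1 and 0.19 (0.11 to 0.27) in the Cry2 knockdown. Aspn, a related proteoglycan, had 146, 30 and 37 counts and was low in both (-2.30 (-2.92 to -1.72) in the Cry1 and -1.65 (-2.21 to -1.12) in the Cry2 knockdown). The type VI collagen chain Col6a3 stood at 1781 CPM in control cells, 745 CPM after Cry1 knockdown and 983 CPM after Cry2 knockdown, log2 ratios of -1.26 (-1.31 to -1.21) in the Cry1 and -0.86 (-0.91 to -0.81) in the Cry2 knockdown, and thrombospondin 2 (Thbs2) was at -1.01 (-1.08 to -0.94) in the Cry1 and -0.23 (-0.30 to -0.17) in the Cry2 knockdown. Other members of the same family lay above the control in the Cry1 knockdown: Prelp at 1.88 (1.58 to 2.19), with 19.2, 70.5 and 12.7 CPM, and Fmod at 1.44 (0.89 to 2.01). Of the 21 genes 2 were at least 2-fold higher and 3 lower. Wnt inhibitors and targets had a median of -0.65 over 9 genes (-0.01 in the Cry2 knockdown). Sfrp2, a secreted Wnt inhibitor, had 37, 17 and 78 counts, log2 ratios of -1.14 (-2.06 to -0.27) in the Cry1 and 1.41 (0.83 to 2.01) in the Cry2 knockdown.

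The lowest ratio of a named gene in the Cry1 knockdown was that of Add2 (ENSMUSG00000030000, chromosome 6, 86028681 to 86124409, plus strand), a membrane skeleton adducin, with 111, 9 and 85 counts and a log2 ratio of -3.64 (-4.81 to -2.66), against -0.05 (-0.48 to 0.37) in the Cry2 knockdown. Lims2, an adhesion protein (-2.44 (-3.11 to -1.83)), Hdc, which makes histamine (-2.43 (-3.33 to -1.62)), and Gfra1, a receptor for GDNF (-1.96 (-2.65 to -1.31)), were near or above the control in the Cry2 knockdown, at -0.12 (-0.51 to 0.25), 0.81 (0.38 to 1.24) and -0.14 (-0.61 to 0.32). Sprr1a was low in both (-2.49 (-3.43 to -1.66) in the Cry1 and -2.14 (-3.08 to -1.31) in the Cry2 knockdown). Add2, Lims2, Hdc and Gfra1 were also below the control in the Cry1 knockdown at day 5, at log2 ratios of -2.07, -1.54, -1.60 and -2.08. On the higher side, Limch1, an actin and myosin regulator, had 7.06 CPM in the control against 49.5 CPM (Cry1 knockdown) and 4.87 CPM (Cry2 knockdown), log2 ratios of 2.81 (2.34 to 3.31) in the Cry1 and -0.54 (-1.34 to 0.23) in the Cry2 knockdown. Tceal7 stood at 18, 94.4 and 24.6 CPM in control, Cry1 knockdown and Cry2 knockdown cells, log2 ratios of 2.39 (2.09 to 2.71) in the Cry1 and 0.45 (0.06 to 0.84) in the Cry2 knockdown. Mal, a membrane raft protein, and Abcc9, the sulfonylurea receptor of muscle potassium channels, had 16 and 13 counts in the control and 109 and 76 in the Cry1 knockdown, ratios of 2.75 (1.99 to 3.61) and 2.53 (1.67 to 3.51). Abundant genes seen after the values were known include the receptor kinase Axl (344, 111 and 307 CPM), the matrix gene Cilp (274, 75.2 and 251 CPM) and Emp1 (631, 274 and 421 CPM), each lowest in the Cry1 knockdown.

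Set directly against each other, the Cry2 knockdown was highest over the Cry1 knockdown in Add2 (3.59 (2.60 to 4.77)), Hdc (3.24 (2.45 to 4.12)), Col23a1 (3.23 (2.67 to 3.84)), Trdc (2.71 (1.84 to 3.70)) and Sfrp2 (2.55 (1.78 to 3.40)). It was lowest in Abcc9 (-3.90 (-5.81 to -2.48)), Limch1 (-3.35 (-4.03 to -2.73)), Myh8 (-3.23 (-3.51 to -2.97)), Ces2g (-3.07 (-4.17 to -2.14)) and Tspan13 (-3.02 (-3.93 to -2.23)). In Add2 the control sided with the Cry2 knockdown, in Col23a1 with the Cry1 knockdown, and for Myh8 it lay between them.

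Several programmes differed little at day 3, as medians in the Cry2 and the Cry1 knockdown. Acetylcholine receptor and synapse genes had medians of -0.01 and 0.19, with the receptor subunit gene Chrna1 at 1295, 1372 and 1289 CPM in the control, the Cry1 knockdown and the Cry2 knockdown. Cytosolic ribosomal proteins had -0.00 and 0.16, glycolysis -0.02 and 0.03, p53 targets 0.03 and -0.00 and hypoxia targets 0.14 and 0.12. Interferon response genes had -0.02 and -0.10, with 9 of 25 past the CPM minimum. Immediate early genes had -0.16 and -0.11, atrophy genes -0.06 and -0.06, the dystrophin complex and integrins -0.15 and -0.08 and TGF-beta signalling 0.01 and -0.15. With 1 library per genotype, a small median does not show that these genes were alike.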

How the data were processed

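PolyA RNA of C2C12 cells was sequenced in 9 libraries, of which the 3 of day 3 were compared and the others set beside them. The values are raw read counts per gene that the authors deposited. The submitters' processing notes name CASAVA 1.8, HISAT2 2.0.2, the build mm10, Subread and featureCounts 1.4.6. The annotation release and the strand setting are not given in the sources used here. Of 47728 gene IDs, 47223 matched a symbol. Size factors came from TMM in edgeR 4.0.16 (R 4.3.3) over 13094 genes kept by filterByExpr. Ratios of CPM and exact (Clopper-Pearson based) 95% counting intervals were computed in Python 3.11.15 (scipy 1.17.1, pandas 2.3.3, numpy 2.4.6; matplotlib 3.10.9 for figures). Genes needed a mean of 5 CPM, and at least 2-fold was counted as called. Where a library had 0 counts the ratio was taken against 3 counts. Without replicates no test was run.

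Named genes are the 6 targeted and title genes, the 10 highest and 10 lowest ratios of each knockdown and the 5 highest and 5 lowest between knockdowns (without unnamed models, pseudogenes and mitochondrial genes), and list members past 2-fold, or, where fewer than 4 were, also the 4 most abundant. Others are said to have been looked up after their values were seen, except members given to complete a list. The 48 lists and all members were chosen with earlier results of these data known. Shared sequence was counted as 31-base words of each gene's longest transcript (GENCODE on mm10) found in transcripts of other genes. Promoters came from RefSeq. The ratio and interval steps were tested on simulated counts for the Cry2 knockdown and the control. These counts held counting error and no variation between cultures. Alternatives were other scalings, CPM minimums of 1 and 20, no minimum, prior counts of 1 and 5, an interval beyond 1.5-fold and leaving out mitochondrial genes and pseudogenes. TMM over every gene was added after the data were seen.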

Additional observations from a re-analysis of the deposited data

Results flagged for a closer look

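Gene lists whose knockdown differences at day 3 and day 5 lay on opposite sides of the control drew attention. In the Cry2 knockdown the regulators of the amino acid stress response had a median log2 ratio to the control of -1.39 at day 3 and of 0.56 at day 5. In the Cry1 knockdown the same list had -0.80 at day 3 and 0.48 at day 5. The amino acid transporters had -0.80 at day 3 and 0.32 at day 5 in the Cry1 knockdown. The difference between the days was not tested, since each genotype and day has 1 library, and both knockdowns are set against the same control library at each day.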

How the results depend on the processing

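The counts of genes past 2-fold depended on the minimum level. With a minimum mean of 1 CPM in place of 5, the Cry2 knockdown had 384 genes higher and 444 lower than the control, the Cry1 knockdown 446 and 390, and the Cry2 against the Cry1 knockdown 468 and 558. At 20 CPM the same counts were 29 and 84, 41 and 63, and 68 and 83. With no minimum they were 1022 and 809, 974 and 1056, and 1056 and 1041. These settings differ by construction in the genes tested. The share of Cry2 calls that were higher moved from 34.3% to 46.4% at 1 CPM, 55.8% with no minimum and 25.7% at 20 CPM. The median of the amino acid stress regulators in the Cry2 knockdown was -1.56 at 20 CPM, over fewer genes. Of the recomputed counts 48 stayed within 1.5 times and 18 did not, while 21 recomputed list medians and 7 ratios of named genes moved beyond their intervals, against 1386 and 7718 that did not. The list medians moved under other minimum levels, and 2 of them changed sign without a minimum: the targeted and title genes in the Cry1 knockdown (-0.26 to 0.04) and the Wnt list in the Cry2 knockdown (-0.01 to 0.24). The named genes that moved were the abundant Acta1, Col3a1 and mt-Co1 under another scaling, with the same sign. Other scalings moved the median of all genes by at most 0.03 on the log2 scale.

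No paired analysis was possible because each genotype and day has 1 library, and for the same reason no fit leaves a library out. Intervals cover counting error only, which is widest in the Cry2 knockdown library, the shallowest. Differences between cultures cannot be told apart from differences between genotypes.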
